A study of Homo sapiens with 6 samples.

Results

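Interferon-stimulated genes are the transcripts that a cell makes in quantity after it has sensed interferon, and the 47 described here were taken from a list of such genes by symbol. All 47 were present among the 17042 gene symbols of the count table, and all 47 passed the filter on low counts that left 13405 genes for testing. They were measured in polyadenylated RNA from THP-1, a human monocytic leukaemia line, in 3 control libraries and 3 knockdown libraries from cells given small interfering RNA (siRNA) against RP11-184M15.1, a long noncoding RNA. All 6 samples had first been differentiated to macrophages over 24 hours by PMA, a phorbol ester, at 100 ng/mL, and then received 20 ng/mL interleukin-4 for 24 hours. The labels give the control genotype as WT and do not say whether the controls were transfected with a lipid reagent alone, with a non-targeting siRNA or not at all, so a response that any siRNA evokes cannot be told apart from one that this siRNA evokes. Nothing in the labels says that replicates were separate cultures, and p-values then reflect only how these libraries vary, which may be technical variation.

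Double-stranded RNA in the cytoplasm or in endosomes can be recognised by the helicases RIG-I (short RNA) and MDA5 (long RNA), by the kinase PKR and by Toll-like receptors. An siRNA is of the short kind. The helicases and the Toll-like receptors can switch on type I interferon. That interferon binds its receptor and activates a transcription factor complex that includes STAT2 and IRF9. The complex binds a short element in the promoters of interferon-stimulated genes, whose products block viral entry, translation and replication. Macrophages are known as a cell type in which this system is armed, and the question put to the data here is whether the knockdown libraries carried more of these transcripts than the controls.

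That element was visible in the promoters of most members. In RefSeq promoters on GRCh38.p14 (250 bases before to 50 bases after each start site), 38 of the 47 members had an entry, DDX58 under its present symbol RIGI. IRF7, IFIT2, OAS2, OASL, MX2, GBP2, DHX58, USP18 and TRIM22 had none. The core of the interferon-stimulated response element, GAAANNGAAA on either strand, occurred in 26 of the 38 (68.4%), against 4.38% of 27305 genes and 3.57% of 35116 promoters of the same length. Stretches of 60 bases from 6 members, chosen to show the element in genes of different function, read 5′ to 3′ on the strand of the gene as follows, with every match to the core in capitals.
IFIT1: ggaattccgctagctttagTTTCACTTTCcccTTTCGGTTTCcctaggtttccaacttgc
ISG15: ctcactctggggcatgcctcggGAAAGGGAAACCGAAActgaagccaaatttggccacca
IFI6: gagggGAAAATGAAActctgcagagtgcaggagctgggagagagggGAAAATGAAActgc
IFI44L: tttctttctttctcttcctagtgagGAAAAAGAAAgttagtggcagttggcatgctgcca
MX1: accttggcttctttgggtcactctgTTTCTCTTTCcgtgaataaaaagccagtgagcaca
BST2: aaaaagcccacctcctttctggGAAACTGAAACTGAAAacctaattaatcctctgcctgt

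The IFIT1 stretch is chr10:89392488-89392547 on the plus strand, 135 to 76 bases before the start site. The ISG15 stretch is chr1:1013362-1013421 (plus strand), and its matches overlap each other. The IFI6 stretch is chr1:27672294-27672353 (minus strand), and it repeats the same 10 letters. The IFI44L stretch is chr1:78620259-78620318 (plus strand). The MX1 stretch is chr21:41431829-41431888 (plus strand), before the downstream of the start sites listed for MX1. The BST2 stretch is chr19:17405723-17405782 (minus strand), with matches that overlap. DDX58, IRF1, IRF9, STAT2, OAS1, HERC6, CXCL11, CMPK2, SAMD9L, SP110, XAF1 and IFI35 had a promoter entry without the core, which says only that these letters are not in that window. A second motif, the gamma-activated site TTCNNNGAA, occurred in 12 of the 38 members (31.6%) and in 9.38% of all genes, and 5 of its 14 matches at members overlapped the core. A match is a description of sequence, and no binding was measured.

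No interferon-stimulated gene passed the test for a difference between knockdown and control. The count of members past an adjusted p of 0.05 (edgeR quasi-likelihood test, two-sided, Benjamini-Hochberg adjustment over 13405 genes) was 0 of 47, where 2.83% of all genes tested were called. DESeq2 and limma-voom also called 0. At an unadjusted p under 0.05 edgeR found 5 members, DESeq2 found 4 and limma-voom found 5. The share of all genes was not counted at that level in DESeq2 and limma-voom. All 5 in edgeR were higher in knockdown, where 6.89% of all genes tested had such a p and were higher, and 2025 genes had such a p in either direction. The members' log2 fold changes ran from -0.09 to 0.28, with a median of 0.03 against a median of -0.00 (-0.002) over all genes tested. Of the 47, 29 lay above 0 and 18 below, where 49.4% of all genes lay above.

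Gene by gene, the data also bound how large a rise they leave room for. Like the p-values, these bounds reflect only how these libraries vary, and they are not a joint limit on the list. A 95% interval was computed for each fold change, and its upper end lay under 1.5-fold in all 47 members. The highest upper end was 1.48-fold, for the chemokine CXCL10, and the median upper end over the members was 1.13-fold. In limma-voom the upper end for CXCL10 was 1.51-fold. Leaving out 1 library widened the interval of CXCL10 to an upper end of as much as 2.03-fold (without control replicate 2), and 44 to 47 members stayed under 1.5-fold. No library of these cells treated with interferon was analysed, so the size of a full response in them is not known here.

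**Figure D1:**
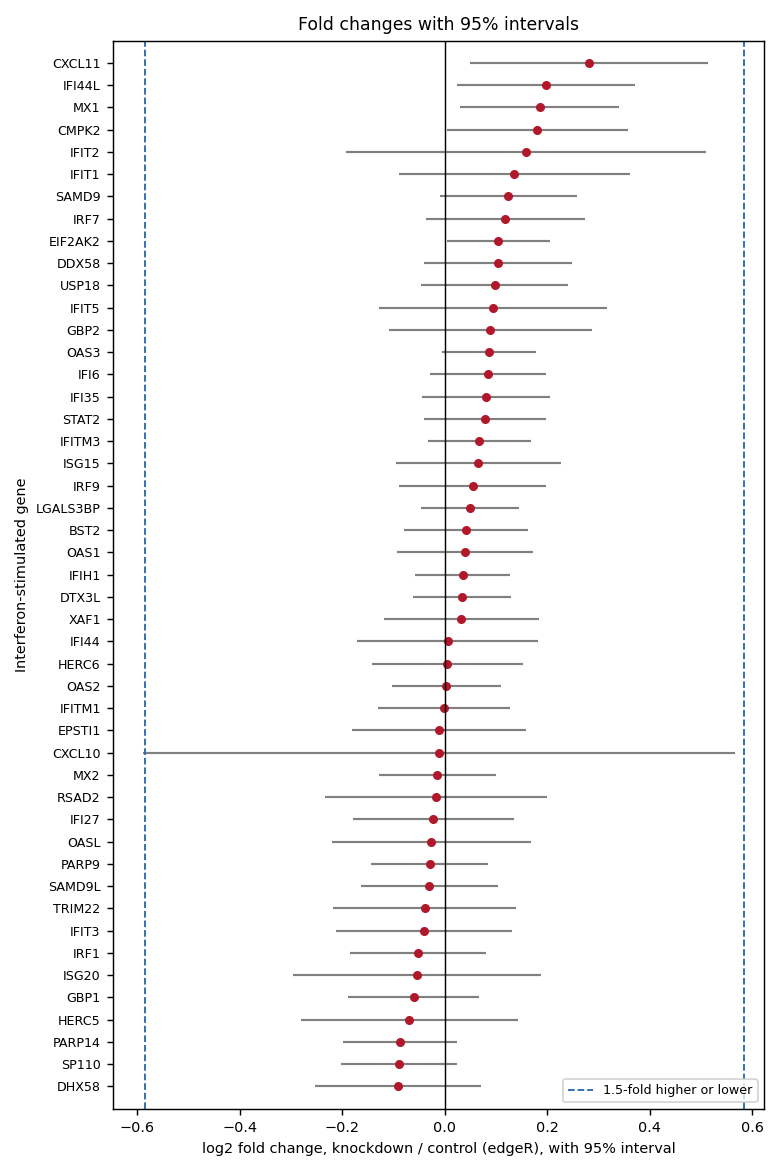
Log2 fold change of each interferon-stimulated gene (points; x axis, knockdown over control, edgeR) with its 95% interval (lines), sorted by size, n = 3 libraries a group; dashed lines mark 1.5-fold. All 47 upper ends lie left of the right dashed line, and 42 of the 47 intervals include 0.

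**Figure D2:**
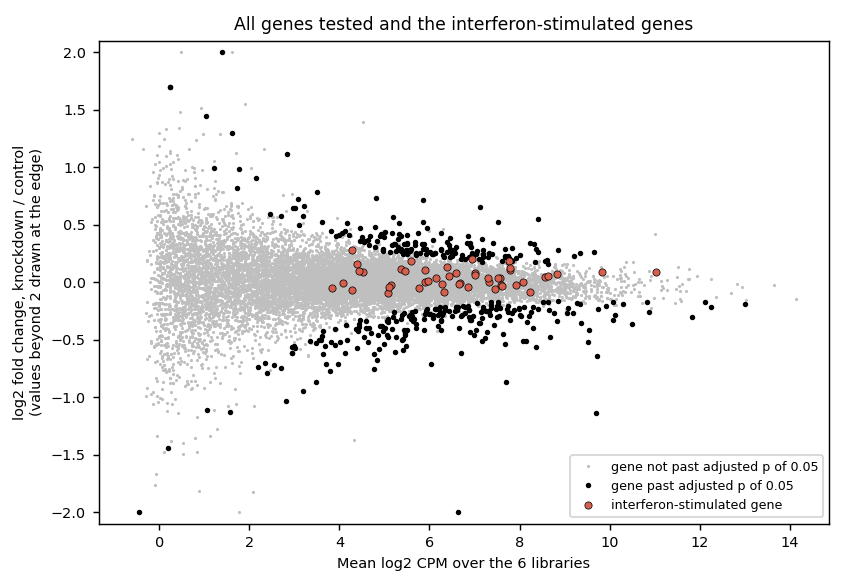
Log2 fold change (y axis) against mean log2 CPM (x axis) for the 13405 genes tested, with the 47 interferon-stimulated genes in red and the 379 genes past an adjusted p of 0.05 in black; values beyond 2 are drawn at the edge. The red points lie between -0.09 and 0.28, and none is past the threshold.

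The transcripts were present in the controls before any comparison. Of the 47, 41 lay above the median of all genes tested by CPM (counts scaled to library size with edgeR's TMM factors) and 18 in the top 10%. Those places among all genes are by CPM without regard to length. Members were set side by side here per length, as mean control CPM per kilobase of the longest annotated transcript, a rough scale. On it IFI6 stood highest at 2414, followed by the entry-blocking membrane protein IFITM3 at 548, the tether BST2 at 368 and IFI27 at 335. The lowest were IFIT5 at 5.13 and IFIT2 at 5.26, and the master regulator IRF7 had 19.0.

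The RNA sensors and the RNA-activated kinase showed small differences that did not pass. EIF2AK2, which encodes PKR, the kinase that halts translation on binding double-stranded RNA, had 214, 210 and 217 CPM in the control libraries and 221, 224 and 243 CPM in the knockdown libraries. All 3 knockdown values lay above all 3 controls, the log2 fold change was 0.10 ± 0.05 (SE) and the edgeR adjusted p was 0.31. DDX58, which encodes RIG-I, a sensor of short double-stranded RNA, had 59.8, 59.6 and 52.7 CPM in controls and 56.9, 62.8 and 65.5 CPM in knockdown. Its groups overlapped (edgeR adjusted p = 0.518). IFIH1, which encodes MDA5, the sensor of long double-stranded RNA, had overlapping groups, with 182, 182 and 176 CPM against 182, 186 and 185 CPM. Its 95% interval ran from 0.96-fold to 1.09-fold. DHX58, a helicase of the same family that lacks the signalling domain, had the lowest log2 fold change of the members at -0.09, with means of 34.5 ± 1.84 CPM in controls and 32.3 ± 2.46 CPM in knockdown (SD, n = 3 each).

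Among the transcription factors, 3 of 4 lay above 0 and none passed. IRF7, the factor that amplifies interferon production and is itself interferon-induced, had 36.1, 41.9 and 39.2 CPM in controls and 39.8, 45.0 and 42.4 CPM in knockdown (log2 fold change 0.12, edgeR adjusted p = 0.484). STAT2, which carries the activation domain of the interferon-activated complex, had 91.2, 98.8 and 89.6 CPM against 93.9, 98.1 and 104 CPM. IRF9, its DNA-binding partner, had 92.5, 84.4 and 77.2 CPM against 81.5, 93.2 and 89.0 CPM. In both genes the groups overlapped, with the lowest value in control replicate 3. IRF1, a factor more closely tied to interferon gamma, had a log2 fold change of -0.05 with a 95% interval from 0.88-fold to 1.06-fold.

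The IFIT genes, whose products bind foreign RNA ends or ribosomal initiation factors, lie side by side on chromosome 10 (GRCh38, 89283694 to 89421001) and varied more between libraries of a group than between groups. IFIT1 had 95.4, 80.9 and 63.6 CPM in the controls and 77.4, 93.3 and 92.9 CPM in the knockdown libraries. The highest and the lowest of its 6 values were both controls, and the log2 fold change of 0.14 ± 0.11 (SE) had an edgeR adjusted p of 0.611. IFIT3 had 129, 122 and 102 CPM against 103, 114 and 127 CPM, a log2 fold change of -0.04. IFIT2 had 18.7, 24.8 and 14.9 CPM against 16.8, 21.9 and 26.9 CPM, with an interval from 0.87-fold to 1.42-fold. IFIT5 stood at 20.6 ± 2.96 CPM in controls and 22.1 ± 1.86 CPM in knockdown (SD, n = 3 each). In all 4 the lowest value was that of control replicate 3.

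The OAS genes encode enzymes that make oligoadenylates, an antiviral second messenger, on binding double-stranded RNA. OAS3 was the second member whose knockdown libraries all lay above the controls, with 882, 897 and 890 CPM in controls and 907, 980 and 946 CPM in knockdown. Its log2 fold change of 0.09 ± 0.04 (SE) had an edgeR adjusted p of 0.369, and its interval ended at 1.13-fold. OAS2 had 270, 281 and 261 CPM against 254, 280 and 281 CPM, a log2 fold change of 0.00. OAS1 had 169, 158 and 138 CPM against 153, 161 and 163 CPM, with overlapping groups, and OASL, a family member without the enzymatic activity, had a log2 fold change of -0.03.

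MX1 had the smallest adjusted p of the antiviral GTPases. It encodes a dynamin-like protein that traps viral nucleocapsids, and is often used as a readout of type I interferon. Its values were 209, 211 and 187 CPM in the controls and 201, 234 and 258 CPM in the knockdown libraries. Knockdown replicates 2 and 3 lay above every control and knockdown replicate 1 did not. The log2 fold change was 0.19 ± 0.07 (SE) and the edgeR adjusted p 0.226. Without knockdown replicate 1, its lowest knockdown value, they were 0.28 and 0.0498. With any other library left out MX1 did not pass. GBP1, a guanylate-binding protein most responsive to interferon gamma, had 192, 184 and 161 CPM against 165, 169 and 180 CPM. MX2 (log2 fold change -0.01) and GBP2 (0.09) had overlapping groups.

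The 3 membrane factors were abundant, and none passed. IFITM3, which blocks fusion of virus with the endosome, had 431, 454 and 443 CPM in controls and 450, 492 and 449 CPM in knockdown (log2 fold change 0.07, interval 0.98-fold to 1.12-fold). BST2, or tetherin, which holds budding virus at the cell surface, had 408, 374 and 344 CPM against 379, 405 and 374 CPM. IFITM1 had a log2 fold change of -0.00 (-0.0008) and means of 161 ± 13.2 and 161 ± 9.32 CPM (SD, n = 3 each). The IFITM genes resemble each other, and the annotation has IFITM1 and IFITM2 sharing exon sequence, so the split of reads among them is uncertain.

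ISG15 is a ubiquitin-like protein joined to other proteins by HERC5 and removed by USP18. ISG15 itself had 131, 132 and 115 CPM in controls and 117, 149 and 130 CPM in knockdown, a log2 fold change of 0.07 ± 0.08 (SE; edgeR adjusted p = 0.755). USP18, which also dampens signalling at the interferon receptor, had 42.4, 45.1 and 39.8 CPM against 42.8, 47.3 and 46.2 CPM. Both showed overlapping groups. HERC6 had 64.4, 55.1 and 58.0 CPM against 54.8, 62.5 and 60.5 CPM, and HERC5 had a log2 fold change of -0.07.

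The chemokines CXCL10 and CXCL11, which attract activated T cells through the same receptor, gave the largest and the least certain values. CXCL11 had 19.2, 18.5 and 14.3 CPM in the controls and 19.0, 22.0 and 22.3 CPM in the knockdown libraries. Its log2 fold change of 0.28 ± 0.11 (SE) was the highest of the 47 and had an edgeR adjusted p of 0.216, with an interval from 1.03-fold to 1.43-fold; knockdown replicate 1 lay below control replicate 1. Without control replicate 3 its log2 fold change was 0.17. CXCL10 had 11.4, 25.8 and 12.2 CPM in controls and 10.9 CPM in knockdown replicate 1 and 23.9 CPM in knockdown replicate 3, with knockdown replicate 2 between them (mean 16.6 ± 6.62 CPM, SD, n = 3). Each group had 1 library well above its others, control replicate 2 and knockdown replicate 3, and the log2 fold change of -0.01 ± 0.27 (SE) turned to 0.49 without control replicate 2 and to -0.35 without knockdown replicate 3, neither past the threshold.

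PARP9 and DTX3L form a complex that modifies histones and aids interferon signalling, and PARP14 is a related ADP-ribosyltransferase. PARP14 had 320, 318 and 292 CPM in controls and 274, 292 and 309 CPM in knockdown, a log2 fold change of -0.09 (edgeR adjusted p = 0.476). PARP9 had 209, 187 and 183 CPM against 181, 192 and 195 CPM, and DTX3L had 189, 185 and 184 CPM against 183, 191 and 197 CPM. None of the 3 separated the groups. PARP9 and DTX3L overlap on opposite strands of chromosome 3, and no source says that strand was used in counting, so their reads may be mixed.

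The other antiviral effectors lay on both sides of 0. CMPK2, a mitochondrial nucleotide kinase, had 47.8, 44.2 and 42.2 CPM in controls and 44.6, 50.1 and 57.4 CPM in knockdown, a log2 fold change of 0.18 ± 0.08 (SE; edgeR adjusted p = 0.319). RSAD2, or viperin, which overlaps CMPK2 on the opposite strand, had a log2 fold change of -0.02, with means of 77.7 ± 14.5 CPM and 76.9 ± 7.34 CPM (SD, n = 3 each). SAMD9, a restriction factor of poxviruses, had 226, 216 and 189 CPM against 212, 237 and 239 CPM, whereas its neighbour on chromosome 7, SAMD9L, had 214, 199 and 181 CPM against 178, 199 and 206 CPM. SP110, a nuclear body protein, was the only member whose knockdown libraries all lay below the controls, with 83.6, 81.3 and 84.1 CPM against 73.5, 80.0 and 80.4 CPM (log2 fold change -0.09, edgeR adjusted p = 0.475). ISG20, TRIM22 and XAF1 had log2 fold changes of -0.05, -0.04 and 0.03.

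Of the remaining induced genes, 5 of 7 lay above 0. IFI6, a small mitochondrial and endoplasmic reticulum protein that limits apoptosis, had 2169, 2024 and 1896 CPM in controls and 2108, 2282 and 2065 CPM in knockdown, with an interval from 0.98-fold to 1.15-fold. IFI44L, which is strongly induced by type I interferon, had 133, 106 and 103 CPM against 118, 139 and 135 CPM. Its log2 fold change of 0.20 ± 0.08 (SE) had an edgeR adjusted p of 0.249. Without control replicate 1, its highest control, they were 0.32 and 0.00407. With any other library left out IFI44L did not pass. LGALS3BP, a secreted glycoprotein, was very even among the controls, at 393, 391 and 391 CPM, against 389, 426 and 401 CPM. IFI27, IFI35, IFI44 and EPSTI1 had log2 fold changes of -0.02, 0.08, 0.01 and -0.01, and all 4 overlapped.

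Counted over the list, the groups did not overlap in 3 members, 2 higher (EIF2AK2 and OAS3) and 1 lower (SP110). Over all genes tested the groups did not overlap in 20%, and 9.61% lay higher in knockdown. Of the 5 members with an unadjusted p under 0.05 (CXCL11, MX1, IFI44L, EIF2AK2 and CMPK2), 3 had a match to the core in an annotated promoter (MX1, IFI44L and EIF2AK2). The median log2 fold change was 0.03 for the 26 members with the core and 0.05 for the 12 without it.

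**Figure D3:**
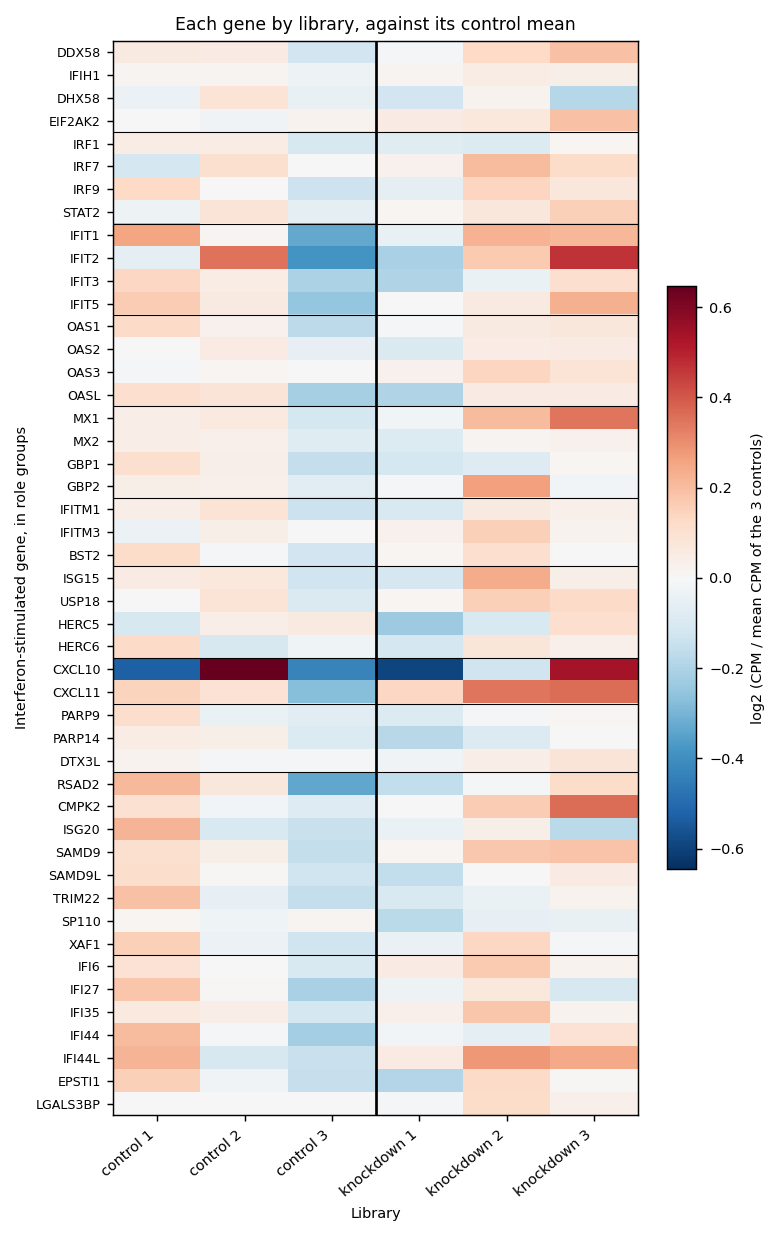
Heat map of log2 (CPM / mean CPM of the 3 controls) for each of the 47 genes (rows, in the role groups of the text) in each library (columns); red is higher, blue lower, and the thick line divides the groups. Control replicate 3 is mostly blue, being the lowest control in 38 genes, and knockdown replicate 1 is the palest or bluest knockdown column in 37.

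What the members shared was a difference between libraries of the same group. Control replicate 3 was the lowest control in 38 of the 47 genes, where it was the lowest control in 34.6% of all genes tested. Control replicate 1 was the highest control in 31, where it was the highest control in 37.6% of all genes. Knockdown replicate 1 was the lowest knockdown library in 37 of the 47, where it was lowest in 32.9% of all genes. It was the highest knockdown library in none of the 47, where it was highest in 32.2% of all genes. The median over members of log2 (CPM + 0.5) relative to each gene's mean of the 6 libraries was 0.05, 0.01 and -0.14 in control replicates 1 to 3 and -0.06, 0.07 and 0.05 in knockdown replicates 1 to 3, while the same median over all genes tested stayed within 0.01 of 0 in each library.

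In each member the spread within the more variable of the groups was larger than the difference between them: the wider of the ranges of log2 CPM exceeded the size of the log2 fold change in 47 of 47, and in 85.9% of all genes tested. The summed share of counts of the 47 genes was 0.887%, 0.857% and 0.806% in the controls and 0.860%, 0.932% and 0.909% in the knockdown libraries, so the groups overlapped. The median log2 fold change of the list was -0.01 without control replicate 3, 0.07 without control replicate 1 or knockdown replicate 1, 0.01 without knockdown replicate 2, 0.02 without knockdown replicate 3 and 0.05 without control replicate 2. Mitochondrially encoded genes took 2.31% to 3.01% of the counts in the controls, with the highest share in control replicate 3, and 2.39% to 2.48% in the knockdown libraries; their part in the pattern was not tested. Control replicate 3 was also the shallowest library.

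**Figure D4:**
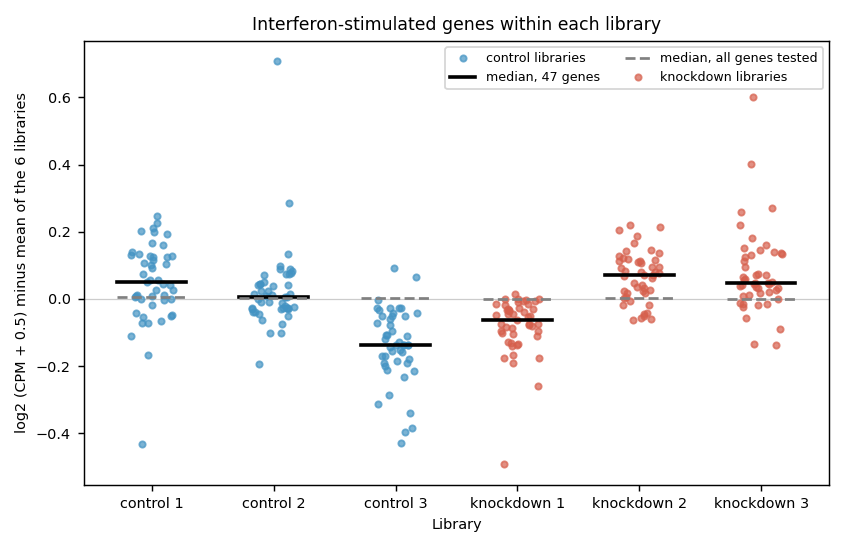
Each point is 1 of the 47 genes: log2 (CPM + 0.5) minus that gene's mean over the 6 libraries (y axis), by library (x axis); black bars are medians over the 47 genes and grey dashes medians over all genes tested. The medians of control replicate 3 (-0.14) and knockdown replicate 1 (-0.06) lie below 0, and the other 4 lie above.

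The rest of the pathway was read from a list of 77 further genes. None of the 14 interferon genes on it (IFNB1, IFNG, alpha, lambda and other interferons) is in the table used here, which has no row with fewer than 10 counts in all, and their levels are not analysed. Of the other genes, 58 were tested and 1 passed, PTPN1, where 2.83% of all genes were called. The median log2 fold change of the 58 was -0.01.

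PTPN1, the phosphatase PTP1B, which can dephosphorylate the receptor-bound kinases JAK2 and TYK2, had 129, 139 and 137 CPM in the controls and 157, 154 and 162 CPM in the knockdown libraries. All 3 knockdown values lay above the controls, and it rose by 0.22 ± 0.05 (SE) on the log2 scale (edgeR adjusted p = 0.0197). Leaving out control replicate 2 gave an adjusted p of 0.0566, and leaving out knockdown replicate 1, 2 or 3 gave 0.088, 0.0694 or 0.125. Of the other negative regulators, PIAS1 had a log2 fold change of -0.11 (edgeR adjusted p = 0.323), and the feedback inhibitor SOCS1, itself induced by interferon, had -0.10 (edgeR adjusted p = 0.673).

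No receptor or signalling gene passed the test in edgeR. IFNGR2, the signalling chain of the interferon gamma receptor, had 496, 478 and 472 CPM in controls and 540, 535 and 540 CPM in knockdown. The groups did not overlap, and the log2 fold change of 0.16 ± 0.04 (SE) had an adjusted p of 0.0528 in edgeR, 0.00875 in DESeq2 and 0.0406 in limma-voom. IFNAR2, a chain of the type I receptor, had 169, 164 and 171 CPM against 157, 159 and 162 CPM, lower in knockdown without overlap, with a log2 fold change of -0.08 and an edgeR adjusted p of 0.454. TYK2, a kinase bound to the type I receptor, had a log2 fold change of -0.04.

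None of the 13 tested genes of RNA and DNA sensing upstream of interferon passed, and 10 of them lay below 0. The endosomal receptor TLR8 had a log2 fold change of -0.08, IRF5, which acts below it, of -0.06, and TLR3, a receptor of double-stranded RNA that was scarce at 1.46 to 2.09 CPM in all libraries, of -0.17. TLR7 fell under the filter, with counts of 7, 12 and 5 in controls and 7, 18 and 8 in knockdown. UBA7, the activating enzyme for ISG15, had a log2 fold change of 0.14 (edgeR adjusted p = 0.279). Of 20 other interferon-induced genes tested, none passed, 10 lay above 0 and 10 below, with APOBEC3G at -0.16 (edgeR adjusted p = 0.164) and IFITM2 at -0.21 (edgeR adjusted p = 0.274).

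The libraries held 10450043 to 14181343 counts. No row of the table carries the name of the targeted RNA, so the level of the target is not given. The labelled cell type was checked against its markers: all 10 macrophage markers were tested, with CSF1R at 1744 ± 47.5 CPM in controls and 1719 ± 27.5 CPM in knockdown (SD, n = 3 each). Per kilobase of transcript in controls, TYROBP stood highest of them at 1373, and CSF1R had 437. MRC1, the mannose receptor, was the lowest at 0.339 per kilobase. It had 1.76 ± 0.577 CPM in controls and 2.43 ± 0.686 CPM in knockdown (SD, n = 3 each). Of the 10, CD14 and CD163 rose by 0.34 and 0.40 on the log2 scale (edgeR adjusted p = 0.003 and 0.0127), and LYZ fell by 0.40 (edgeR adjusted p = 0.000928). Of 24 markers of T, B, epithelial, fibroblast and plasmacytoid dendritic cells, 6 passed the filter. Per kilobase in controls, TRAC stood highest of the 6 at 5.18, followed by TCF4 at 3.83. TCF4 had means of 32.0 CPM in controls and 36.8 CPM in knockdown. The T cell receptor gene TRAC rose from 5.06 ± 0.551 to 7.55 ± 0.437 CPM (SD, n = 3 each; edgeR adjusted p = 0.0409), while CD3E, CD3D, CD2 and CD8A have no row in the table.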

How the data were processed

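The samples were THP-1 macrophages, 3 control and 3 knockdown libraries of polyadenylated RNA, assigned to groups by their titles. The authors deposited estimated counts (expected counts) as whole numbers, by gene symbol. Salmon 0.11.2, DESeq2 and hg38 are named, without a role, per the submitters' processing notes. The rounding and the strand setting are not given in the sources used here. Salmon divides reads among similar sequences, so related genes are less certain, as are overlapping genes (among members, EIF2AK2 with GPATCH11, IRF1 with C5orf56, IFIT2 with LIPA, SP110 with SP140, RSAD2 with CMPK2, PARP9 with DTX3L, GBP2 with GBP7). The lowest row sum was 10.

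The deposited counts were not altered. The whole table was fitted with edgeR 4.0.16: filterByExpr removed low genes, TMM set the factors, and a two-sided quasi-likelihood test compared the groups without covariates, at a Benjamini-Hochberg threshold of 0.05. The standard error is the size of the log2 fold change over the square root of F, and the 95% interval uses the t quantile of the fit. Alternatives used DESeq2 1.42.0, limma 3.58.1 (voom), RLE and upper-quartile factors, other filters, the replicate number as a block, and each library left out. The fits were tested first on simulated counts, in 5 runs with 200 of the 13405 genes changed. There edgeR called 41.6% of 1.25-fold and 65.2% of 1.5-fold changes, over genes of all levels. False calls made up 7.47% of its calls, above the threshold of 0.05. Its 95% intervals held the true value in 95.2% of genes. Other tools were R 4.3.3, Python 3.11.15, numpy 2.4.6, pandas 2.3.3 and matplotlib 3.10.9. Gene positions, overlaps and lengths came from GENCODE 29 (GRCh38), promoters from RefSeq (GRCh38.p14). A library with no count of a gene allows up to 3 counts, or 0.212 to 0.287 CPM.

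The members and lists were chosen with earlier results of these data known. Values in each library are given for the 2 members of each role group with the highest mean CPM and the 2 with the smallest p. Members whose groups did not overlap are treated likewise. Of the pathway lists, genes past the threshold and the 2 with the smallest p of each list are named. They are named as far as they bear on the members. Genes named beyond this rule were chosen after their values were seen. Libraries of 1 group differed beyond counting noise in each pairing (chi-square over degrees of freedom 1.90 to 6.79, genes with 20 or more counts). Some genes of the pathway lists are counted in the totals but not reported here by name.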

Additional observations from a re-analysis of the deposited data

How the results depend on the processing

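The count of members past the threshold was 0 in DESeq2, in limma-voom, with RLE and upper-quartile factors, with either other filter and with the replicate number as a block, and 0 to 1 with 1 library left out (IFI44L without control replicate 1, MX1 without knockdown replicate 1). At an unadjusted p under 0.05 it was 5 for members, 7 for pathway genes and 2025 for all genes. Leaving out 1 library gave 1 to 9 members with an unadjusted p under 0.05. The share of all genes with such a p was not counted in those fits, so the 1 to 9 cannot be set against it. The same settings gave 21 to 40 members above 0, 3 to 14 members whose groups did not overlap and 44 to 47 upper ends under 1.5-fold. The members' median log2 fold change was -0.01 (-0.009) to 0.07 (0.072), where that of all genes tested was -0.003 to 0.002. Without control replicate 3, 3 of the 9 members that did not overlap were higher and 6 lower, where 33.6% of all genes did not overlap. Without knockdown replicate 1, 13 of 14 were higher, where 28.8% of all genes did not overlap. With any 1 library left out, that share of all genes ran from 28.5% to 33.6%. Its split by direction was not counted, so the splits of the members cannot be set against all genes. Control replicate 3 was the lowest control in 38 of the 47 members. Knockdown replicate 1 was the lowest knockdown library in 37. Dropping either one by itself shifts the split. In limma-voom 46 upper ends lay under 1.5-fold. Over the 13 other fits, 23 of the 47 members kept their sign, 18 above 0 and 5 below. All genes called ran from 139 to 542 and those higher from 55 to 214 with 1 library left out. Pathway genes called were 2 (PTPN1 and IFNGR2) in DESeq2, in limma-voom, with RLE factors, with upper-quartile factors and with the replicate block, and 0 to 2 with 1 library left out.

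The replicate numbers do not clearly pair the libraries: deviations of same-numbered libraries from their group means correlated at 0.05, 0.10 and 0.07 over 13405 genes, although every library correlated best with its own number. With the replicate block, 488 genes were called (200 higher), 0 members among them, and the members' median was 0.03. The cause of these differences was not tested. That there are 3 libraries a group limits what can be read from the list.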
